A study of Mus musculus with 97 samples.

Results

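RNA of newborn (P0) cortical cells that lack Cdk5r1 throughout the animal was compared with that of control cells, in channels, transporters, signalling molecules, transcription factors and metabolic enzymes. By their deposited genotype, age and data set, 22 of the 97 libraries of the series were chosen, 10 of KO-Cdk5r1-MADM and 12 of control-MADM. Mice of both groups were of the CD1 strain and carried the MADM-11 cassettes, GT on one and TG on the other copy of chromosome 11, together with Emx1-Cre. In KO-Cdk5r1-MADM both of these copies also carried the Cdk5r1 deletion (MADM-11 GT,Cdk5r1/TG,Cdk5r1), so that all cells of the animal were mutant. In control-MADM (MADM-11 GT/TG) no cell was. MADM (mosaic analysis with double markers) exchanges parts of both chromosome copies in dividing cells, which colours single cells, and Emx1-Cre, active in progenitors of the dorsal forebrain, starts it. Each library was made from 2000 green GFP+ cells sorted from 1 cortex, with polyadenylated RNA amplified by SMART-Seq v2. The sort took all green cells of the Emx1-Cre lineage, and no marker of neurons was used in it. The study also has Cdk5r1-MADM, in which green cells are mutant within a heterozygous cortex, and its 6 libraries of P0 are given below beside single genes. P-values measured the spread between cortices, since each library came from its own cortex.

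Cdk5r1 encodes p35, the activator that CDK5, a kinase of postmitotic neurons, needs for its activity. CDK5 phosphorylates cytoskeletal, adhesion and signalling proteins, and without p35 projection neurons do not pass their predecessors on the way to the cortical surface, which disturbs the order of the layers. Cdk5r2 encodes p39, the other activator of CDK5, and the Reelin and DAB1 pathway acts on the same migration.

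The total count on genes was 3635070 to 5480448 per library in control-MADM and 4007541 to 5393155 in KO-Cdk5r1-MADM. Libraries of control-MADM fell into 2 classes by their mitochondrial reads. In 6 of them mt-Nd3, a gene of the mitochondrial genome, had more reads than the mitochondrial pseudogene Gm28438, and in the other 6, as in all 10 KO-Cdk5r1-MADM libraries, Gm28438 had more. All 6 Cdk5r1-MADM libraries were of the mt-Nd3 class. The comparison was therefore repeated against the 6 control libraries of the class of the mutants, and log2 fold changes of that comparison are given as "within the class". Of the animals, 7 of 12 controls and 4 of 10 mutants were female by their sex-linked transcripts.

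Cdk5r1 (ENSMUSG00000048895.13, chr11:80477023-80481184 of mm10) was reduced in all mutants. In CPM, reads of a gene are scaled to the library's total on tested genes, and that total is adjusted by TMM scaling. The level of Cdk5r1 was 60.4 to 112 CPM in the KO-Cdk5r1-MADM libraries (median 75.7) and 136 to 256 CPM in control-MADM (median 182). The groups did not overlap, and the remaining reads were counted over the whole gene, including what the deletion leaves. The log2 fold change was -1.23 ± 0.125 (SE; adjusted p = 2.49e-07, edgeR quasi-likelihood test), and within the class it was -1.30 (adjusted p = 2.51e-05). Neither Cdk5 nor the gene of the other activator passed the test (adjusted p under 0.05). Cdk5 had a median of 161 CPM in control-MADM and 186 CPM in KO-Cdk5r1-MADM (0.16, adjusted p = 0.309; 0.09 within the class), and it passed once the percentage of aligned reads outside genes entered the model (0.31, adjusted p = 0.011). Cdk5r2 had 38.4 and 32.2 CPM (adjusted p = 0.431; -0.39 within the class). Of 36 tested genes of the p35/CDK5 and Reelin pathways 1 was higher (2.78%) and 3 were lower (8.33%), beside 1.28% and 3.87% of all genes. The deleted gene is 1 of the 3, and of the other 35 genes 2 (5.71%) were lower. Rap1gap, which turns off the small GTPase RAP1, fell by 0.40 on the log2 scale, Dab2, an endocytic adaptor related to DAB1, fell by 1.23, and Cdk5rap3, a CDK5-binding protein, rose by 0.24. Dab1 (-0.14), Dcx (-0.02), Ndel1 (-0.06) and Dpysl2 (0.09), which act on the cytoskeleton of migrating neurons, did not pass the test.

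**Figure D1:**
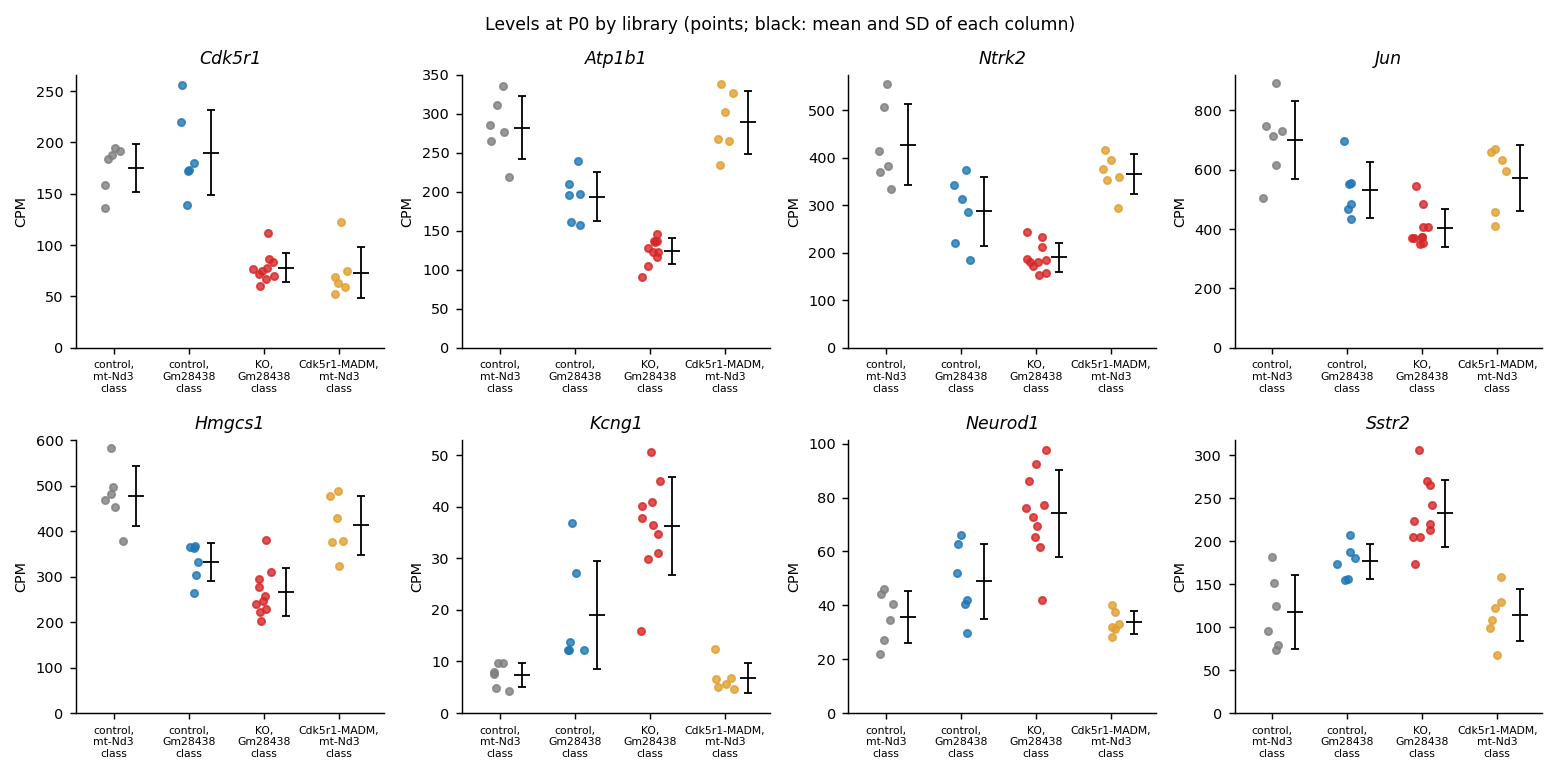
Level of 8 genes in each P0 library, in CPM scaled to the tested genes on an axis from 0, one panel per gene, with control-MADM split by mitochondrial class, KO-Cdk5r1-MADM and Cdk5r1-MADM on the horizontal axis. Each point is 1 library from 1 cortex, with the mean and SD of its column in black, and Cdk5r1 and Atp1b1 of the mutants lie below all 12 controls.

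Of 13087 genes with a mean count above 10, 675 (5.16%) were called, that is, differed at an adjusted p under 0.05. Of all genes, 507 (3.87%) were lower and 168 (1.28%) higher in KO-Cdk5r1-MADM, at a median log2 fold change of 0.01 over all tested genes. The median size of the called changes was 0.72 on the log2 scale. Within the class only 4 of 13037 genes (0.0307%) were called, and 1097 had an unadjusted p under 0.05. That comparison has 6 fewer controls, and the 657 called genes that could be tested in it kept their sign, with a median size of 0.52. Both comparisons share all mutants and 6 controls. The 6 control libraries of either class, set against each other after seeing the data, gave 5 called genes and 1635 with an unadjusted p under 0.05. Since no mutant was of the mt-Nd3 class, genotype and class cannot be told apart against those controls, and genes chosen by the rule for named genes are given with their values within the class. Further called genes, picked after their values were seen, have the change against all controls only. The rule gave 87 genes, of which 85 were called and 71 of these kept their call when any 1 of the 22 libraries was left out. Emx1, Zbtb46, Panx1, Olfm1, Atp6v1h, Slc17a6, Slc17a7, Sstr3, Lpar2, Bdh1, Plpp2, Abhd16a, Adi1 and Cox10 lost it without at least 1 library.

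Markers of glia were lower in the mutants, and none of a list of 8 general and excitatory neuron markers was called lower. The summed level of 8 astrocyte markers was 633 to 2720 CPM in control-MADM (median 1987) and 588 to 1785 CPM in KO-Cdk5r1-MADM (median 986), and 5 of the 7 tested were called lower. The corresponding sum of 7 oligodendrocyte lineage markers was 378 to 2349 CPM (median 1444) against 270 to 1274 CPM (median 537), with 5 of 6 called lower. Radial glia markers, those of the cortical stem cells, summed to 1619 to 7594 CPM (median 5342) and 1676 to 6524 CPM (median 2695), with 4 of 9 called lower. The ranges of the groups overlapped for each of these lists. The mutants differed by the number in their titles. Radial glia sums were 1676 to 2769 CPM in the 6 mutants of the lower numbers and 3887 to 6524 CPM in the 4 of the higher numbers, and astrocyte sums were 588 to 989 CPM and 1229 to 1785 CPM. The 2 controls of the higher numbers were at 4725 and 7594 CPM for radial glia, and the other 10 at 1619 to 7373 CPM. What the numbers stand for was not given, and libraries of the lower numbers alone gave 1244 called genes. Within the class, the control medians were 1698 CPM for astrocytes, 1155 CPM for oligodendrocytes and 5098 CPM for radial glia. In bulk RNA, fewer cells of a type and less RNA per cell cannot be told apart.

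Markers of neurons, both general and excitatory ones, summed to 3897 to 6254 CPM in control-MADM and 3929 to 6058 CPM in KO-Cdk5r1-MADM. The labelled neurons were thus present in both groups. Of the 8 markers 2 were called higher, Slc17a6 (0.45) and Slc17a7 (0.94) of excitatory neurons. Tubb3 (-0.08), Dcx (-0.02), Rbfox3 (0.015) and Map2 (0.12), which neurons share, were not called. Of 10 upper layer markers 0 were called by edgeR, 2 had an unadjusted p under 0.05 and DESeq2 called 1, and 1 of 8 deep layer markers was higher. Markers of interneurons, which in the cortex arise outside the Emx1-Cre lineage, were present at 171 to 555 CPM in controls and 122 to 308 CPM in mutants. Called lower were 3 of 7, Dlx1, Dlx2 and Dlx5. Gad1 (-0.61), Gad2 (-0.67), Lhx6 (-0.09) and Sst (-0.33) were not called. Microglia summed to 13.5 to 123.2 CPM and 2.99 to 73.2 CPM with 2 of 8 called lower, mural cells of vessels to 33.2 to 136 CPM and 21.5 to 62.7 CPM with 3 of 5 called lower, and endothelium to 32.5 to 108 CPM and 40.7 to 70.9 CPM. Of 4 endothelial markers 0 were called by edgeR or DESeq2, and 1 had an unadjusted p under 0.05. The other lists, of intermediate progenitors, cycling cells, erythroid cells, meninges, choroid plexus and Cajal-Retzius cells, held 2 called genes among 22 tested, both lower. No marker was at 0 in all libraries. Of the 235 called genes in the functional lists below, 18 were themselves markers in these lists.

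**Figure D2:**
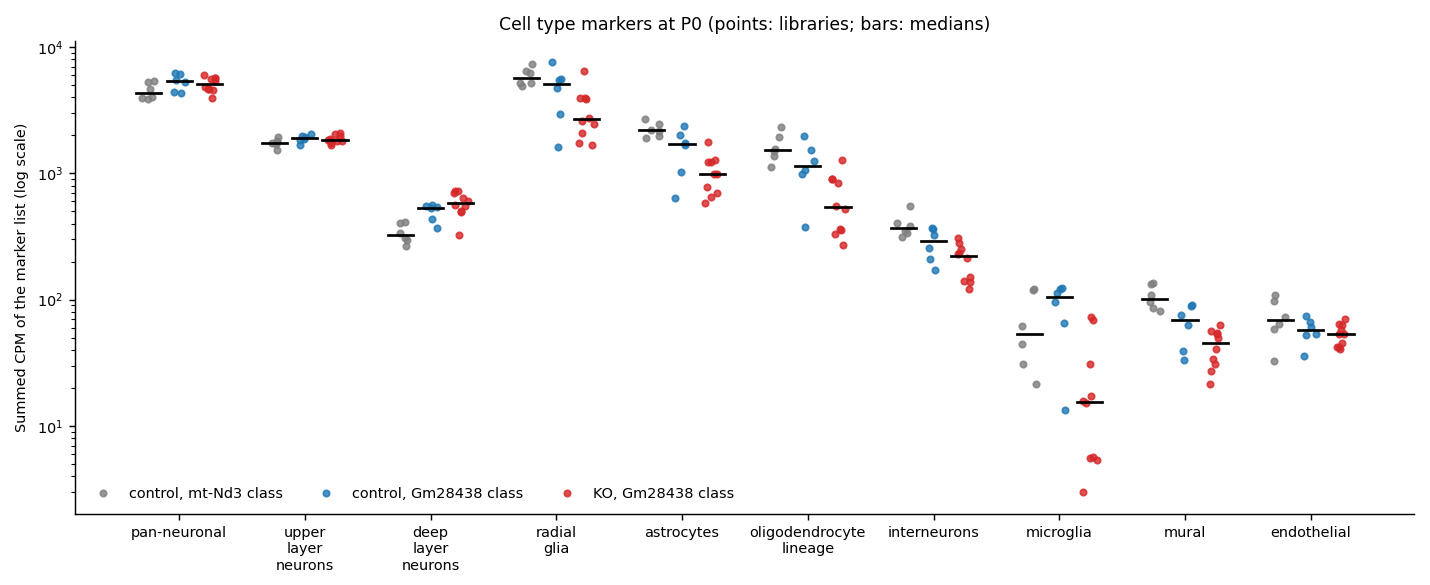
Summed CPM of 10 cell type marker lists in each P0 library (points), on a log axis, with bars at the medians of the controls of each mitochondrial class and of the mutants. Astrocyte and oligodendrocyte sums of the mutants have medians of 986 and 537 CPM against 1987 and 1444 CPM in the controls, with overlapping ranges.

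When the summed level of astrocyte and oligodendrocyte markers entered the model as a covariate, an alternative chosen after seeing the data, 35 genes were called, 28 of them lower. With the level of vascular markers as a covariate 8 genes were called. Both sums moved with the genotype, from a median of 3403 to 1523 CPM for the glial and from 157 to 105 CPM for the vascular markers. Cdk5r1 kept its call in both, and values of other genes in these fits are given where they bear on a result. A gene of these marker lists, such as Aldoc or Aqp4, is itself part of the sum, so the fit removes part of its own change.

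Among the 18 lists of gene functions, which held 235 of the 675 called genes, the share called lower was highest in receptor tyrosine kinases and growth factors (17 of 74, 22.97%), lipid and cholesterol metabolism (35 of 189, 18.5%) and activity-regulated early genes (9 of 49, 18.4%), beside 3.87% of all genes. It was 3.80% in calcium, MAP kinase and small GTPase signalling and 0.781% in the citrate cycle and respiratory chain, at or below the level of all genes. These 3.87% lower and 1.28% higher are the background of the counts that follow. The share called higher was at most 3.70% in any list, in cortical identity transcription factors.

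**Figure D3:**
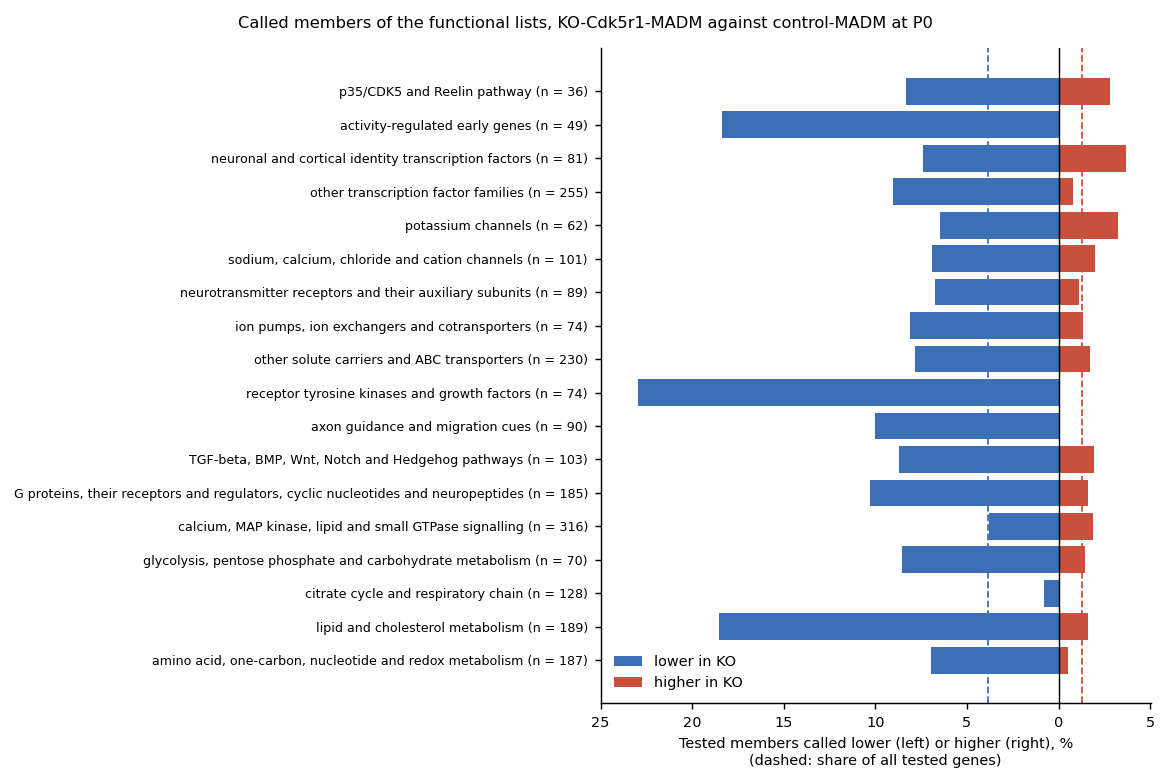
Share of tested genes called lower and higher in KO-Cdk5r1-MADM, in percent, for each of the 18 lists, with dashed lines at the shares of all 13087 tested genes. Receptor tyrosine kinases and growth factors, lipid and cholesterol metabolism and activity-regulated early genes have the highest shares called lower, 22.97%, 18.5% and 18.4%.

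The transcription factors that rose included Bcl11b and Neurod1 of projection neurons, and those that fell included early response genes and factors known from glia and interneurons. Among 81 neuronal and cortical identity factors 3 rose (3.70%) and 6 fell (7.41%), with a median log2 fold change of -0.04. Bcl11b, which specifies subcerebral projection neurons of layer V, had 21.7 to 62.3 CPM in control-MADM (median 40.8) and 35.6 to 108 CPM in KO-Cdk5r1-MADM (median 75.6). In 6 of 10 mutants it was above the highest control. The log2 fold change was 0.85 ± 0.172 (adjusted p = 0.00513), and 0.65 within the class (adjusted p = 0.482). Neurod1, a factor of differentiating neurons, ranged from 22 to 66.2 CPM (median 41.3) in controls and from 41.8 to 97.6 CPM (median 74.4) in mutants, 7 of which lay above all controls. Its change within the class was 0.59. Emx1, of dorsal cortical progenitors and neurons and the gene after which the Cre line is named, rose by 0.44 (adjusted p = 0.026) and by 0.17 within the class (adjusted p = 0.668). The Emx1-Cre allele is shared by both groups.

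Mef2c, a factor of activity-dependent synapse development, was 216 to 787 CPM in control-MADM (median 560) and 132 to 412 CPM in KO-Cdk5r1-MADM (median 284). Its log2 fold change was -0.92 ± 0.216 (adjusted p = 0.0135), -0.78 within the class and -1.38 with the glial markers as a covariate (adjusted p = 0.036), so it was larger there. Sall3 (-0.89; -0.57 within the class) and Pou3f4 (-0.74; -0.60 within the class) fell as well, and for Sall3 the value with glial markers as a covariate was 0.03. Tshz1 (-0.71), Etv1 (-0.70) and Bhlhe41 (-0.95) were the remaining called factors of that list.

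In 255 other transcription factors 2 rose (0.784%) and 23 fell (9.02%), with a median of -0.12. Zbtb8a, a zinc finger protein, was 12.5 to 26.4 CPM in controls and 23.8 to 34.8 CPM in mutants, and 7 mutants were above all controls (log2 fold change 0.67, adjusted p = 0.00291; 0.51 within the class). Sox10, the defining factor of oligodendrocyte precursors, was 26.7 to 151 CPM (median 64.9) and 5.46 to 50.8 CPM (median 17.9), with 6 mutants below all controls (-1.81 ± 0.301, adjusted p = 0.00149; -1.52 within the class). Sox9 (-0.78) and Sox2 (-0.88), factors of radial glia and astrocytes, Nr2e1 (-0.97) and Gli3 (-0.58) of cortical stem cells, and Dlx1 (-0.77), Dlx2 (-0.70) and Dlx5 (-0.97) of interneurons also fell. Nr1d1, a repressor of the circadian clock, was lower at -0.98 ± 0.185 (adjusted p = 0.00323; -0.72 within the class). Nfkb2 (-0.91), Rel (-0.89), Irf1 (-0.73) and Stat3 (-0.78), factors of cytokine responses, were called lower, and Nr3c1, the glucocorticoid receptor, fell by 0.84.

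Activity-regulated early genes are transcribed within minutes of calcium entry or growth factor signals and, in dissociated tissue, of stress. Of 49 tested, 9 fell (18.4%). None was called higher by edgeR or DESeq2, and 2 were higher at an unadjusted p under 0.05. The median log2 fold change of the list was -0.34, against -0.32 within the class. Jun, a subunit of AP-1, had 433 to 893 CPM in control-MADM (median 586) and 349 to 546 CPM in KO-Cdk5r1-MADM (median 372), and 8 of 10 mutants were below all controls. Its log2 fold change was -0.61 ± 0.117 (adjusted p = 0.00335), and -0.41 within the class (adjusted p = 0.41). Junb was 145 to 326 CPM and 104 to 188 CPM (-0.60, adjusted p = 0.00797; -0.62 within the class), and Klf6, a zinc finger factor, was 89 to 251 CPM and 81.3 to 122 CPM (-0.76, adjusted p = 0.00554; -0.50 within the class). Fos (-0.48), Atf3 (-1.26), Egr3 (-0.99), Gadd45b (-0.82), Ier3 (-0.95) and Klf9 (-0.81) were the other called genes. Egr1, of the family of Egr3, was at -0.11 without a call, and the difference between them was not tested. Of the 3 Nr4a receptors, at a median of -0.63, 0 were called by edgeR, 2 had an unadjusted p under 0.05 and DESeq2 called 1.

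Of 62 potassium channel genes 2 rose (3.23%) and 4 fell (6.45%). Kcng1, a modifying subunit that assembles with Kv2 channels, was 4.34 to 36.9 CPM in control-MADM (median 10.9) and 15.8 to 50.7 CPM in KO-Cdk5r1-MADM (median 37.2). The 6 controls of the mt-Nd3 class lay between 4.34 and 9.66 CPM, below all mutants, and those of the other class overlapped the mutants. The log2 fold change was 1.47 ± 0.27 (adjusted p = 0.00306), and 0.92 within the class (adjusted p = 0.426). Both subunits of the neuronal ATP-sensitive potassium channel, which closes as ATP rises, were higher. Its pore Kcnj11 had a median of 8.16 CPM in controls and 12.9 CPM in mutants (0.92 ± 0.206, adjusted p = 0.00951; 0.84 within the class), and its sulfonylurea receptor Abcc8 had 15.2 and 31.7 CPM (0.95 ± 0.201, adjusted p = 0.00607; 0.56 within the class). The genes lie next to each other on chromosome 7.

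The 4 potassium channel genes that fell were Kcnj10 (-1.34), the inward rectifier by which astrocytes clear potassium, Kcnd2 (-0.67), the pore of the A-type current of dendrites, and Kcnip3 (-0.55) and Kcnip4 (-0.99), which bind to that pore. Kcnd2 was 21.2 to 65.7 CPM in controls and 17.7 to 29.7 CPM in mutants (adjusted p = 0.00819), and Kcnip3 was 88.8 to 174 CPM and 70 to 120 CPM (adjusted p = 0.0043). The mutant libraries were thus in the lower part of the control range or below it. Within the class the changes were -0.49 for Kcnd2, -0.50 for Kcnip3 and -0.67 for Kcnj10.

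Among 101 sodium, calcium, chloride and other cation channels and related pores 2 rose (1.98%) and 7 fell (6.93%). Ryr1, a calcium release channel of the endoplasmic reticulum, was 19 to 35.8 CPM in control-MADM (median 28) and 34.6 to 65.5 CPM in KO-Cdk5r1-MADM (median 43), and 9 of 10 mutants exceeded every control. Its log2 fold change was 0.69 ± 0.13 (adjusted p = 0.00332), and 0.54 within the class (adjusted p = 0.41). Itpr2, the inositol trisphosphate receptor best known from astrocytes, moved the other way, from a median of 12.3 to 4.48 CPM (-1.51, adjusted p = 0.00478; -0.79 within the class). The water channel Aqp4 (-1.68), the gap junction protein Gja1 (-1.11) and Ttyh1 (-0.93), a chloride channel family member, all genes of astrocytes or radial glia, fell. Within the class Aqp4 was at -0.98 and Ttyh1 at -0.62. With the glial markers as a covariate Ttyh1 was at -0.05 and Aqp4, itself part of that marker sum, at -0.39. Panx1, a large-pore channel, rose by 0.26 (adjusted p = 0.032; 0.15 within the class).

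Of 89 neurotransmitter receptor genes and auxiliary subunits 1 rose (1.12%) and 6 fell (6.74%), with a median of -0.08. Grm3, a metabotropic glutamate receptor of astrocytes and neurons, was 23.3 to 131 CPM in controls (median 60.6) and 20 to 46 CPM in mutants (median 25.5), 5 of them below all controls (-1.26 ± 0.243, adjusted p = 0.00387; -0.66 within the class). Chrna4, a subunit of the nicotinic acetylcholine receptor, fell by 0.90 (adjusted p = 0.00594; -0.57 within the class) from 23.7 to 11.5 CPM in the medians. Adora2b, an adenosine receptor, was 0.785 to 53.6 CPM and 0.237 to 7.26 CPM, with 2 controls at 36.76 and 53.6 CPM far above the rest (-2.34, adjusted p = 0.0129; -2.89 within the class). Both of these controls were of the class of the mutants, so they enter the value within the class. The other controls of that class were at 0.785 to 10.5 CPM. Grin3a (-1.04), Grik1 (-0.97) and Gphn (-0.40), of glutamate receptors and the inhibitory synapse, were called lower, and Olfm1, which binds AMPA receptors, rose by 0.37 (0.17 within the class).

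Among transporters, Atp1b1 alone also passed the test within the class. Atp1b1 (ENSMUSG00000026576.12, chr1:164437109-164458355), the main neuronal beta subunit of the sodium pump, had 157 to 335 CPM in control-MADM (median 229) and 90.1 to 146 CPM in KO-Cdk5r1-MADM (median 126). No mutant overlapped a control. The log2 fold change was -0.94 ± 0.116 (adjusted p = 1.22e-05), and -0.66 within the class (adjusted p = 0.0146), where Atp1b1 was 1 of the 4 called genes, with Cdk5r1, AA465934 and Gm15772. It also kept its call with the glial (-0.73, adjusted p = 0.032) and vascular (-0.88, adjusted p = 0.001) markers as covariates. In Cdk5r1-MADM the level was 235 to 338 CPM, beside 219 to 335 CPM in the controls of the same mitochondrial class. The beta subunit Atp1b2 (-0.62), abundant in astrocytes, also fell, and Atp1b3 (-0.24) did not pass the test.

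Of 74 ion pumps, exchangers and cotransporters 1 rose (1.35%) and 6 fell (8.11%), and of 230 other solute carriers and ABC transporters 4 rose (1.74%) and 18 fell (7.83%). Atp6v1h, a subunit of the vacuolar proton pump, rose by 0.23 (adjusted p = 0.0467; 0.14 within the class). Slc4a4, the sodium bicarbonate cotransporter of astrocytes, fell by 1.34 (adjusted p = 0.00387; -0.87 within the class). Both vesicular glutamate transporters, which fill synaptic vesicles of excitatory neurons, were higher, Slc17a6 with medians of 46 and 64.7 CPM (0.45, adjusted p = 0.0399) and Slc17a7 with 11.7 and 23.8 CPM (0.94, adjusted p = 0.0347). Within the class these changes were 0.27 and 0.69. With glial markers as a covariate they were 0.19 (adjusted p = 0.748) and 0.13 (adjusted p = 0.931). The transporters that clear glutamate from the extracellular space moved the other way. Slc1a3 was 256 to 1409 CPM (median 966) in controls and 223 to 739 CPM (median 424) in mutants (-1.08 ± 0.221, adjusted p = 0.00571; -0.75 within the class and -0.02 with glial markers as a covariate). Slc1a2 fell by 1.22, and the neuronal Slc1a1 was at -0.11 without a call. Slc6a11 (-0.71), which takes up GABA, and Slc6a9 (-0.74), which takes up glycine, fell too.

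Receptor tyrosine kinases and growth factors had the highest share of lower genes, 17 of 74. None was called higher by edgeR or DESeq2, and 2 were higher at an unadjusted p under 0.05. The median log2 fold change of the list was -0.29, and -0.18 within the class. Ntrk2, the receptor of brain-derived neurotrophic factor, was 185 to 556 CPM in control-MADM (median 356) and 152 to 245 CPM in KO-Cdk5r1-MADM (median 183), with 5 mutants below all controls. Its change was -0.61 within the class (adjusted p = 0.26). Sorcs3, a sorting receptor of the VPS10 family that binds neurotrophin receptors, was 5.92 to 13.7 CPM and 2.79 to 6.09 CPM, and 9 of 10 mutants were below every control. Against the controls of the same class, at 7.02 to 12.7 CPM, there was no overlap, and the log2 fold change was -1.05 (adjusted p = 0.136). Its relative Sorcs1 fell by 0.96. Bdnf itself did not pass the test (-1.49, adjusted p = 0.0526), nor did Ntrk3 (-0.07).

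Further members of this list that were called lower belong to several families and cell types. Pdgfra (-1.93) marks oligodendrocyte precursors and Pdgfrb (-1.04) pericytes, Fgfr3 (-0.78), Fgfrl1 (-1.13) and Fgf1 (-1.55) belong to FGF signalling, and Erbb4 (-1.37) is the neuregulin receptor of interneurons. Igfbp5, which binds insulin-like growth factors, was 21.7 to 145 CPM in controls and 13.6 to 49 CPM in mutants (-1.33, adjusted p = 0.00194; -0.97 within the class). Vegfa, which attracts vessels, fell by 0.63, and Spry4, a feedback inhibitor of these receptors, by 0.96.

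The 3 somatostatin receptors split. Sstr1 was 9.16 to 39.8 CPM in control-MADM (median 22.9) and 2.3 to 14.8 CPM in KO-Cdk5r1-MADM (median 7.59), and 8 of 10 mutants were below all controls. Sstr2 was 73.4 to 208 CPM (median 155) and 174 to 306 CPM (median 222), with 7 mutants above all controls, and Sstr3 was 0.181 to 4.71 CPM and 1.32 to 12.6 CPM. The log2 fold changes were -1.75 ± 0.297 (adjusted p = 0.00149), 0.66 ± 0.156 (adjusted p = 0.0136) and 1.55 ± 0.416 (adjusted p = 0.0267). Within the class they were -1.24, 0.39 and 1.27, without a call. The call of Sstr3 was lost without KO-Cdk5r1-MADM replicate 5, which had the highest value. All 3 couple to inhibitory G proteins.

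In 185 genes of G proteins, their receptors and regulators, cyclic nucleotides and neuropeptides, 3 rose (1.62%) and 19 fell (10.3%). The third gene that rose, Lpar2, a receptor of lysophosphatidic acid, had medians of 11.9 CPM in controls and 19.8 CPM in mutants (0.77, adjusted p = 0.0377; 0.55 within the class). S1pr1, a sphingosine 1-phosphate receptor, was 51.6 to 273 CPM (median 186) and 46.3 to 147 CPM (median 76.2), a change of -1.12 (adjusted p = 0.0047; -0.85 within the class and -0.07 with glial markers as a covariate). Gpr17, of committed oligodendrocyte precursors, was 3.93 to 77.2 CPM and 0.254 to 22 CPM (-2.44, adjusted p = 0.0047; -1.38 within the class). Adgrg1, a receptor of radial glia needed for the pial surface of the cortex, fell by 0.44. Gnao1, the most abundant G protein alpha subunit of neurons, fell by 0.36.

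Morphogen pathways held 2 higher (1.94%) and 9 lower (8.74%) of 103 genes, at a median of -0.17. Both higher genes act in Wnt signalling. Rspo3, a secreted enhancer of Wnt receptors, was 1.26 to 10.7 CPM (median 2.66) and 2.64 to 15.9 CPM (median 9.65), with 5 mutants above all controls (1.54 ± 0.329, adjusted p = 0.00651; 1.25 within the class). Wnt7b, a Wnt ligand, was 147 to 392 CPM and 207 to 448 CPM (0.58, adjusted p = 0.00953; 0.33 within the class). Dkk3, a secreted protein of the Dickkopf family, was 95.8 to 242 CPM (median 192.5) and 102 to 148 CPM (median 123.1), which lay inside the control range (-0.66 ± 0.107, adjusted p = 0.00104; -0.46 within the class). Inhibitors of BMP signalling fell, with Chrdl1 at -1.49 (-0.87 within the class) and Nog at -0.81, and so did the receptor Bmpr1a (-0.52; -0.38 within the class), the activin antagonist Fst (-1.30) and the pseudoreceptor Bambi (-0.77).

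Of 90 guidance and migration genes 9 fell (10%), while the median of the list was 0.02. None was called higher by edgeR, DESeq2 called 2 and 13 were higher at an unadjusted p under 0.05. Ephb3, a receptor of ephrins, was 31.9 to 58.2 CPM in control-MADM (median 51.2) and 17.8 to 55.3 CPM in KO-Cdk5r1-MADM (median 24.4), and 8 of 10 mutants were below all controls. Its log2 fold change was -0.81 ± 0.16 (adjusted p = 0.0043) and -0.83 within the class (adjusted p = 0.41). Unc5c, a netrin receptor, fell by 1.23 (medians of 12.8 and 6.21 CPM, adjusted p = 0.00953), and Sema6a, a transmembrane semaphorin, by 1.21 (95.2 and 36 CPM, adjusted p = 0.00594). Within the class both were at -0.71. Epha4 (-0.44), Efna5 (-0.71), Plxnc1 (-0.58) and Sema6d (-0.80) belong to the same ephrin and semaphorin families.

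In calcium, MAP kinase, lipid and small GTPase signalling 6 of 316 genes rose (1.90%) and 12 fell (3.80%), which is near the shares of all genes. Dusp14, a phosphatase of MAP kinases, was 12.6 to 50.2 CPM and 32.8 to 63.5 CPM (0.78, adjusted p = 0.00588; 0.42 within the class), and Map2k6, a kinase that activates p38, was 26.9 to 56.8 CPM and 35.9 to 60.4 CPM (0.51, adjusted p = 0.00953; 0.34 within the class). Rasa3, which turns off RAS and RAP1, was 44.8 to 105 CPM and 33 to 65.2 CPM (-0.69, adjusted p = 0.00252; -0.55 within the class). Prkcq (-1.55), a protein kinase C, and Camk2d (-0.87), a calmodulin-dependent kinase, also fell.

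Lipid genes held more called genes than the other 3 metabolic lists together. Of 189 genes of lipid and cholesterol metabolism 35 fell (18.5%) and 3 rose (1.59%), at a median of -0.13. A subset of 19 enzymes of cholesterol synthesis, chosen after seeing the values, were all below 0. Of these 9 were called lower, and none was called higher by edgeR or DESeq2 or was higher at an unadjusted p under 0.05 (0 of 19). They had a median log2 fold change of -0.38 and a range of -0.61 to -0.11. Within the class the median was -0.24 and the range -0.47 to -0.03, and edgeR called 0 of the 19, with 5 at an unadjusted p under 0.05. In Cdk5r1-MADM, which shares the controls, the median was 0.04. Hmgcs1 (ENSMUSG00000093930.2, chr13:119690379-119708260), which makes the HMG-CoA that enters the pathway, was 263 to 582 CPM in control-MADM (median 373) and 202 to 380 CPM in KO-Cdk5r1-MADM (median 252), with 6 mutants below all controls (-0.61 ± 0.119, adjusted p = 0.00387). Controls of the class of the mutants were at 263 to 367 CPM and those of the other class at 379 to 582 CPM, and the change within the class was -0.33 (adjusted p = 0.498). The other called enzymes were Mvk (-0.48), Mvd (-0.41), Sqle (-0.38), Lss (-0.50), Cyp51 (-0.33), Msmo1 (-0.52), Nsdhl (-0.38) and Dhcr7 (-0.60). Of 5 sterol regulators, among them Srebf2 and Srebf1 (-0.27 and -0.24), 0 were called by edgeR or DESeq2 and 2 had an unadjusted p under 0.05.

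Promoters of these genes in the RefSeq table, 250 bases before to 50 after each annotated start in GRCm38.p6, were searched on both strands for the sterol response element TCACNCCAC. Of 18 windows of 15 cholesterol synthesis genes 1 held it, as did 1.24% of 32851 windows of all genes. It is shown because it is the only match among these enzymes and belongs to the one with the largest change. The window of Hmgcs1 lies at chr13:119690101-119690400 on the plus strand, with the match in capitals, 137 bases before the start.
Hmgcs1 promoter: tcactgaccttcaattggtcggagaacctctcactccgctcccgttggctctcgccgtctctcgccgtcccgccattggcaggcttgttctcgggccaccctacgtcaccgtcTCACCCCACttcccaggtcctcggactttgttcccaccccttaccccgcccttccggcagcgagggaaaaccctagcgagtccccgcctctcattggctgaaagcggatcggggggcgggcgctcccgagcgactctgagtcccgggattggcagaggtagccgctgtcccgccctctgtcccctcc
The 8 windows of called early genes held neither the cyclic AMP response element TGACGTCA (1.79% of all windows) nor the CArG box bound by serum response factor (1.63%). Of the lipid genes called lower, 27 had windows, and among these Elovl5 alone held TGACGTCA. Matches of different motifs overlapped in 3 windows of all genes and in 0 of the cholesterol synthesis genes, and a match describes the letters of a window only.

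Fatty acid desaturation and elongation followed, with 4 of 10 genes lower and a median of -0.43. Scd1 fell by 0.90, Fads2 by 0.61, Elovl5 by 0.50 and Fads1 by 0.36. Genes that carry or store lipids in glia, Apoe (-1.19), Fabp7 (-0.98) and Soat1 (-0.71), and of fatty acid oxidation, Cpt1a (-0.76), Acadl (-0.85) and Acaa2 (-0.58), were called lower too. Enpp2, the secreted autotaxin that makes lysophosphatidic acid, was 14.6 to 41.8 CPM (median 31.6) and 3.95 to 26.2 CPM (median 10.1), and 7 mutants were below all controls (-1.34 ± 0.242, adjusted p = 0.00252; -1.09 within the class). The 3 genes that rose were Bdh1 (0.23) of ketone body metabolism, Plpp2 (0.60), a lipid phosphatase, and Abhd16a (0.30), a phosphatidylserine lipase. Within the class they were at 0.17, 0.51 and 0.16. With glial markers as a covariate edgeR called 0 genes of the lipid list, 33 had an unadjusted p under 0.05, and the median of the list was -0.07.

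**Figure D4:**
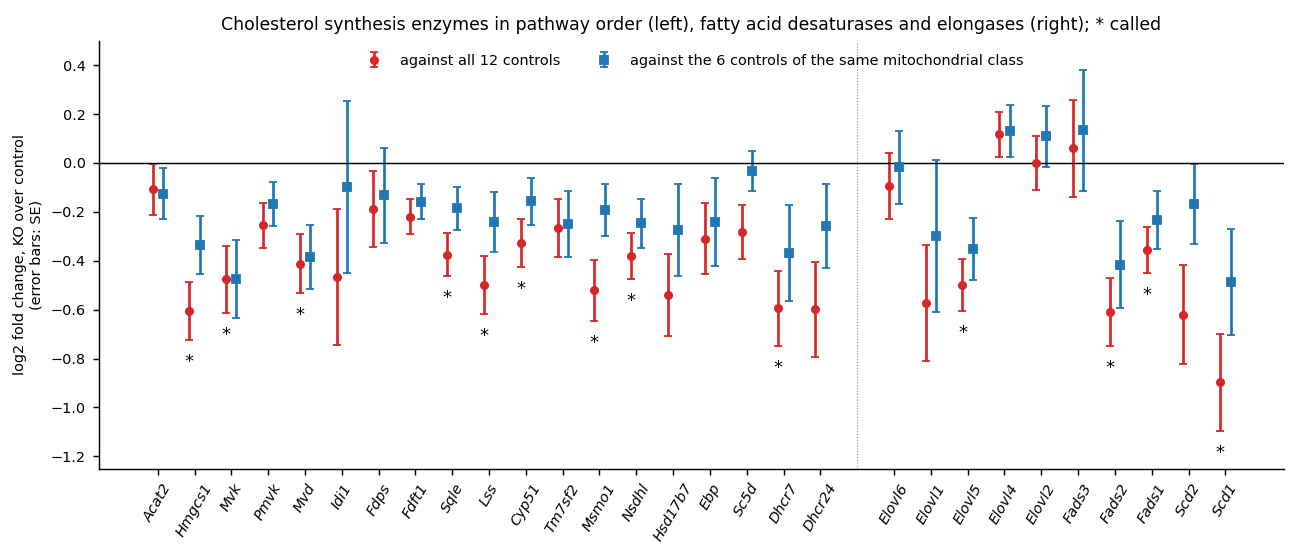
Log2 fold change of KO-Cdk5r1-MADM over control-MADM for the 19 enzymes of cholesterol synthesis in pathway order (left) and 10 fatty acid desaturases and elongases (right), against all 12 controls (circles) and the 6 of the same mitochondrial class (squares), with SE as bars and stars at called genes. All 19 enzymes of cholesterol synthesis are below 0 in both, with medians of -0.38 and -0.24.

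Carbohydrate metabolism held 1 higher (1.43%) and 6 lower (8.57%) of 70 genes. Me1, the cytosolic malic enzyme that supplies NADPH for lipid synthesis, was 27.1 to 37.9 CPM in control-MADM (median 30.6) and 17.1 to 27.1 CPM in KO-Cdk5r1-MADM (median 17.6), and 9 of 10 mutants were below all controls. Its change was -0.59 within the class (adjusted p = 0.254). Eno2 and Aldoc are glycolytic enzymes of neurons and astrocytes respectively, and they moved apart. Eno2 rose by 0.52 ± 0.132 (adjusted p = 0.0202; 0.44 within the class), from a median of 54.5 to 75.9 CPM, and Aldoc fell by 0.93 (adjusted p = 0.00915; -0.80 within the class), from 915 to 416 CPM. With glial markers as a covariate Eno2 was at 0.11 (adjusted p = 0.841) and Aldoc at 0.02, but Aldoc is itself part of that marker sum. Pdha1, of the pyruvate dehydrogenase complex, fell by 0.28 (adjusted p = 0.0302; -0.26 within the class), as did Pcx (-0.69) and Pygb (-0.46). In the citrate cycle and respiratory chain 1 of 128 genes was called, at a median of 0.06. This was Cox10 (-0.36, adjusted p = 0.0267; -0.32 within the class), which makes the heme of complex IV. That count depended on the setting. When the share of reads outside genes entered the model, 17 of the 128 were called, beside 1222 of all tested genes.

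Of 187 genes of amino acid, one-carbon, nucleotide and redox metabolism 1 rose (0.535%) and 13 fell (6.95%). Glud1, glutamate dehydrogenase, was 230 to 680 CPM (median 476) and 168 to 446 CPM (median 252), a change of -0.86 ± 0.166 (adjusted p = 0.00367; -0.56 within the class). Glul, glutamine synthetase of astrocytes, fell by 0.78, and Gatm, of creatine synthesis, by 1.25 (adjusted p = 0.0047; -0.56 within the class). Psat1 (-0.50), of serine synthesis, and Cat (-0.47), catalase, were called lower. Adi1, of the methionine salvage pathway, rose by 0.36 (adjusted p = 0.0248; 0.23 within the class).

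Some of the strongest changes lay outside these functions. AA465934 (ENSMUSG00000093483.1, chr11:83291699-83294632), a processed transcript that starts 2814676 bases beyond the start of Cdk5r1, was 2.66 to 12.6 CPM in control-MADM (median 7.06) and 10.4 to 92.9 CPM in KO-Cdk5r1-MADM (median 64.3), with 9 of 10 mutants above all controls (3.00 ± 0.231, adjusted p = 7.13e-10; 3.08 within the class, adjusted p = 0.000209). It was 45.5 to 65.2 CPM in Cdk5r1-MADM. Gm15772 (ENSMUSG00000062353.6, chr5:3236431-3236868), a pseudogene, was 49.4 to 57.2 CPM in 4 controls, 1.5 to 6.0 CPM in the other 8 and 0 to 1.1 CPM in mutants (-4.96 ± 0.792, adjusted p = 0.00104; -5.84 within the class, adjusted p = 0.000221). These 4 controls, replicates 1 to 4, were all of the class of the mutants. Control replicates 11 and 12, of the same class, were at 1.5 and 3.49 CPM. Only reads aligned to a single place were counted, so reads that match another copy equally well are missing from these levels. Whether reads of similar copies were placed here was not tested. Reads of overlapping and antisense genes cannot be told apart in counts that ignore the strand. Rnf227, a RING finger protein, was 73 to 125 CPM and 110 to 158 CPM (0.49, adjusted p = 0.00335; 0.52 within the class). Pld2, a phospholipase that makes phosphatidic acid, was 14.1 to 51.7 CPM and 10.3 to 26.9 CPM (-1.11, adjusted p = 0.00104; -0.97 within the class). Matn4, a matrix protein of oligodendrocyte precursors, was 10.2 to 67.8 CPM and 4.94 to 28.8 CPM (-1.72, adjusted p = 0.00104; -1.46 within the class). Within 5000000 bases of Cdk5r1, 12 of 113 tested genes (10.6%) were called, beside 64 of 1035 (6.18%) on chromosome 11 as a whole. Both counts include the deleted gene Cdk5r1 itself.

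Against Cdk5r1-MADM, 1125 of 13087 genes (8.6%) were called in KO-Cdk5r1-MADM, and between Cdk5r1-MADM and the controls 2 were (0.0153%). The comparisons share their libraries, and the genotype and mitochondrial class of Cdk5r1-MADM and KO-Cdk5r1-MADM cannot be told apart. Of the 85 named genes called against the controls, 73 were also called against Cdk5r1-MADM. Values of Cdk5r1-MADM overlapped those of the controls for Ntrk2 (295 to 416 CPM), Jun (410 to 671 CPM), Sstr1 (20.8 to 52.3 CPM) and Sstr2 (67.8 to 158 CPM). For Jun they also overlapped those of KO-Cdk5r1-MADM (349 to 546 CPM). They lay near those of KO-Cdk5r1-MADM for Cdk5r1 (52.5 to 122 CPM) and AA465934.

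At E16, when upper layer neurons are being born, libraries of the same genotypes were compared, 11 of KO-Cdk5r1-MADM, all of the Gm28438 class, and 12 of control-MADM, 6 of each class. Some of the mutants stood apart. Vascular markers summed to 667 to 859 CPM in KO-Cdk5r1-MADM replicates 9 to 11, which have the higher title numbers, and to 370 and 384 CPM in replicates 5 and 8, against 79.5 to 130 CPM in the other 6 mutants and 71.4 to 137 CPM in 11 of 12 controls, with replicate 12 of the controls at 426 CPM. Of the reads of replicates 9 to 11, 63.5 to 66.8% were aligned to a single place. The change at P0 minus that at E16 passed the test for 714 of 13007 genes (5.49%) with all libraries, for 36 of 12966 (0.278%) without those 3, and for 9 of 12941 (0.0695%) without all 6 libraries over 300 CPM of vascular markers. Of the 85 named genes it passed for 42, 13 and 4. These genes were chosen by their change at P0, which enters this difference, so their share is not comparable with that of all genes. The part of vascular RNA in these counts cannot be told apart from that of the title numbers and of fewer libraries.

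The 4 named genes that passed in all 3 comparisons were AA465934, Me1, Kcnip3 and Rasa3. AA465934 was at 0.04 at E16 (adjusted p = 0.94), with median counts of 242.5 in control-MADM and 282 in KO-Cdk5r1-MADM. These E16 libraries had at most 6946345 counts on genes. At P0 the controls had a median of 7.06 CPM and the mutants 64.3 CPM, so the P0 controls were the group that stood apart. The difference of AA465934 between the ages was 2.97 with all libraries, 2.90 without the 3 mutants and 2.82 without the 6 libraries. For Me1 it was -0.94, -1.05 and -0.97, for Kcnip3 -0.61, -0.81 and -0.82, and for Rasa3 -1.11, -0.87 and -0.93. Srp9, Neurod1, Sstr1, Sox10, Nr1d1, Aqp4, Ttyh1, Slc22a23 and Glud1 passed with all libraries and without the 3 mutants. Neurod1 was at -0.49 at E16 without a call, and its difference was 1.31 (adjusted p = 0.00417) and 1.06 (adjusted p = 0.0473). Sstr1 had a difference of -2.04 and -1.99 (adjusted p = 0.0465 for the latter).

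The other 29 of these 42 genes lost the call for the difference without the 3 mutants. Cdk5r1 was at -1.85 at E16, and its change differed between the ages by 0.63 with all libraries (adjusted p = 0.0164) and by 0.58 without them (adjusted p = 0.0944). Atp1b1 was at 0.18 at E16 with all libraries and at -0.22 without them, and its difference was -1.11 (adjusted p = 0.0272) and -0.73 (adjusted p = 0.239). Jun and Ntrk2 had differences of -0.86 and -0.84 with all libraries and of -0.66 and -0.62 without a call. Bcl11b was at 0.32 at E16, and its difference between ages was not called. Hmgcs1 was at -0.46 at E16 (adjusted p = 0.00496) and Mef2c at -0.80 (adjusted p = 0.00585), and without the 3 mutants they were at -0.42 and -0.68 with adjusted p of 0.0922 and 0.114.

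**Figure D5:**
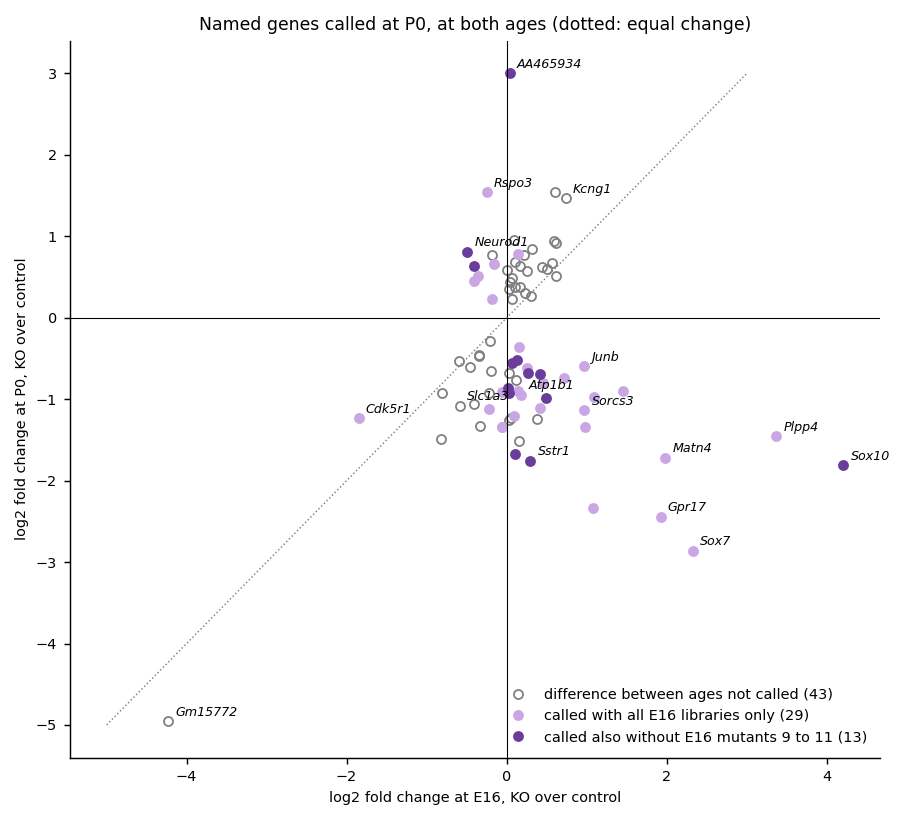
Log2 fold change of KO-Cdk5r1-MADM over control-MADM at E16 (horizontal axis, all E16 libraries) and at P0 (vertical axis) for the 85 named genes called at P0, each point a gene, with a dotted line at equal change. Open points mark the 43 genes whose difference was not called, light points the 29 called with all E16 libraries only and dark points the 13 called also without E16 mutants 9 to 11, among them AA465934 at 0.04 and 3.00.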

How the data were processed

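RNA of GFP+ cells of single cortices was measured at P0 in 12 control-MADM, 10 KO-Cdk5r1-MADM and 6 Cdk5r1-MADM libraries. The authors deposited STAR's read counts per gene for each library, made from reads aligned to a single place of mm10 (GRCm38), of which the unstranded column was taken. These counts were neither normalized nor filtered, and rows that name no gene were left out of library sizes (reads outside genes were 12.6 to 24.4% of the aligned reads). The submitters' processing notes also name bedtools and R 3.6.1. The annotation release was not given in the sources used here.

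edgeR 4.0.16 in R 4.3.3 fitted the 3 genotypes of P0 together, for genes whose mean count exceeded 10, with TMM scaling and robust quasi-likelihood F tests. Calls are at a Benjamini-Hochberg adjusted p under 0.05 over all tested genes. Libraries of E16 were added for the difference between ages. Libraries were grouped by the deposited genotype and age. Of 111 pairs of libraries within a group none was alike enough to be copies (lowest variance ratio 4.02, where 1 is sampling noise). The fit was tested on simulated data with 200 changed genes. Alternatives were DESeq2 1.42.0, RLE scaling, a fit of genes of any mean count, a fit of 2 genotypes alone, a block for the replicate number, each library left out, and as a covariate sex, mitochondrial class, vascular markers, the share of reads outside genes or the number set in the titles. Others added after seeing the data are named as such. Python 3.11.15, scipy 1.17.1 and matplotlib 3.10.9 made tables and figures.

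The comparison, the 18 lists and the marker lists were chosen with earlier results of these data known. The lists are patterns of gene symbols, 2 of which were corrected after seeing the values. Named genes are Cdk5r1, Cdk5 and Cdk5r2, and, ranked by adjusted p among called genes, the first 10 higher and 10 lower over all and the first 3 higher and 3 lower of each functional list. A few genes of these lists are not reported here. Other called genes and all smaller groups, such as the enzymes of cholesterol synthesis, were picked after their values were seen. Summed levels of markers were scaled to the total on all genes. CPM is not corrected for gene length, so levels of different genes are not compared.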

Additional observations from a re-analysis of the deposited data

Results flagged for a closer look

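For 43 of the 87 named genes the change of KO-Cdk5r1-MADM against control-MADM differed between P0 and E16 (edgeR, adjusted p under 0.05). Without KO-Cdk5r1-MADM replicates 9 to 11 of E16, the libraries with the most vascular RNA, it did for 13 of these, and without all 6 E16 libraries over 300 CPM of vascular markers for 4. Over all genes the change differed for 714 of 13007 (5.49%) with all libraries. Most named genes were chosen by their change at P0, which enters this difference, so these shares are not comparable. Values are the log2 fold change at P0 minus that at E16, with all libraries. The difference was positive for AA465934 (2.97), Rspo3 (1.80), Neurod1 (1.31), Srp9 (1.05), Slc17a6 (0.87), Map2k6 (0.87), Sstr2 (0.83), Lnx2 (0.65), Cdk5r1 (0.63) and Atp6v1h (0.42). Among transcription factors it was negative for Jun (-0.86), Junb (-1.56), Sall3 (-1.03), Pou3f4 (-1.45), Nr1d1 (-1.47), Sox10 (-6.0) and Sox7 (-5.17). Channels, receptors of transmitters and transporters with a negative difference were Kcnip3 (-0.61), Kcnj10 (-1.27), Aqp4 (-1.77), Ttyh1 (-0.94), Chrna4 (-2.34), Adora2b (-3.42), Atp1b1 (-1.11), Slc4a4 (-1.27) and Slc22a23 (-0.64). Of the signalling and guidance genes, Cdk5r2 (-1.08), Sorcs3 (-2.09), Ntrk2 (-0.84), Sstr1 (-2.04), S1pr1 (-0.89), Gpr17 (-4.36), Ephb3 (-1.26), Sema6a (-1.29), Rasa3 (-1.11) and Arhgef3 (-2.05) had one, as did the enzymes Me1 (-0.94), Enpp2 (-2.30), Plpp4 (-4.81), Glud1 (-0.87) and Cox10 (-0.51), and Pld2 (-1.51) and Matn4 (-3.68). At E16 Sox10 had over 3 counts in 5 of 12 control and 8 of 11 mutant libraries, Sox7 in 2 and 3, Gpr17 in 1 and 6, and Plpp4 in 2 and 4. Reads of the mutants came from few libraries, with up to 264 of 631 counts of Sox10, 107 of 206 of Sox7, 85 of 190 of Gpr17 and 73 of 133 of Plpp4 in 1 library. Without the 3 mutants the difference was -3.46 for Sox10, -1.34 for Sox7, -3.10 for Gpr17 and -2.58 for Plpp4, of which Sox10 alone passed the test.

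In 10 named genes the highest of the 10 KO-Cdk5r1-MADM libraries stood apart from the others, in CPM scaled to the tested genes. Replicate 9 was highest for Itpr2 (11.2, the next library at 5.57), Ttyh1 (467 and 281), Sema6a (92.9 and 53.4), Plpp4 (7.92 and 4.82) and Gatm (22.9 and 15). Replicate 4 was highest for Me1 (27.1 and 22.4) and Adi1 (82.4 and 71.9), replicate 5 for Sstr3 (12.6 and 6.42), replicate 7 for Cdk5r1 (112 and 86.1) and replicate 10 for Ephb3 (55.3 and 35.2). Chance puts about 1 in 20 groups past this limit.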

How the results depend on the processing

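The number of genes called at P0 (675) was 949 with DESeq2, 670 with RLE normalization, 456 with only 2 genotypes in the fit and 704 with sex as a covariate. It was 371 without a mean-count minimum, 7 with the mitochondrial class as a covariate, 4 against control libraries of the class of the mutants, 8 with the vascular markers, 1222 with the share of reads outside genes (59.9% of them lower, against 75.1%) and 1296 with the number set in the titles as a covariate. Of settings chosen after seeing the data, the astrocyte and oligodendrocyte markers as a covariate gave 35, and libraries of the lower title numbers alone, without 2 controls and 4 mutants, gave 1244. Leaving out 1 library gave 372 (control-MADM replicate 9) to 1079 (control-MADM replicate 3), with 438 without control-MADM replicate 6 and 378 without KO-Cdk5r1-MADM replicate 5. The difference between ages gave 714 calls, 986 with DESeq2, 735 with RLE normalization and 468 without the minimum. It gave 36 without the 3 E16 mutants of the higher title numbers and 9 without the 6 E16 libraries over 300 CPM of vascular markers, both chosen after seeing the data.

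Cdk5r1 was called under each of these settings. Of the 85 called named genes, 79 lost their call with the mitochondrial class and 77 with the vascular markers as a covariate, 80 of 84 within the class, 17 without the minimum and 6 with 2 genotypes. With the glial markers 80 lost it, of which Sall3 (0.0349) and Aldoc (0.0156) changed sign. Aldoc is itself a member of that marker sum. Cdk5 gained a call with the share of reads outside genes. The cause was not tested.

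With the replicate number as a replicate block, 787 genes were called. Same-numbered libraries of both groups correlated at -0.11 to 0.46 over 10 numbers, above 0.1 in 5, so the numbers were not taken as pairs.

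Genes of a few CPM, such as Sstr3, Sox7 and Gm15772, rest on few reads in a library of this depth. Mitochondrial class, glial and vascular marker levels and genotype moved together in these libraries, and their parts cannot be told apart with 6 controls of the class of the mutants.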
